A study of Mus musculus with 16 samples.

Results

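Interferon-stimulated genes were followed in mouse liver by RNA sequencing, in wild-type mice and in mice with a liver-specific knockout of the microRNA miR-33, each fed chow or a high-fat diet. The 38 genes were taken by name from the 23258 rows of the deposited gene counts, all 38 were found, and all 38 passed the filter on low counts that left 16830 genes for testing. The mice were C57BL/6, and the 4 groups were wild type on chow (3 libraries), knockout on chow (4), wild type on high-fat diet (4) and knockout on high-fat diet (5). The deposited counts carry Alb-Cre in their name, a Cre recombinase driven by the albumin promoter of hepatocytes, and the labels do not say which alleles the controls carry. The microRNA was not analysed here, so no value below checks the genotype labels. The labels do not state that libraries came from separate animals, so each p-value speaks of variation among these libraries alone, which may be technical.

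Interferons are secreted proteins through which cells warn their neighbours of infection. Type I interferons such as interferon beta signal through a receptor made of Ifnar1 and Ifnar2 to a complex that contains Stat2 and Irf9 and binds the interferon-stimulated response element in the promoters of target genes. Interferon gamma signals through Ifngr1 and Ifngr2 and acts on genes through the gamma-activated site. In liver, hepatocytes, Kupffer cells and endothelial cells can all respond. The 38 genes are arranged below by role, from the transcription factors and RNA sensors of the pathway to the effectors it induces.

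The promoter sequences of 30 of the 38 genes were found by symbol in RefSeq windows of 300 bases, 250 before and 50 after the start site, on GRCm38.p6, the same assembly as mm10. Mx1, Mx2, Rtp4, Dhx58, Gbp6, Oas2, Usp18 and Ifi27 had no window. The core of the response element was searched on both strands as GAAA, any 2 bases and GAAA, which reads as TTTC, any 2 bases and TTTC from the other side, and the core of the gamma-activated site as TTCNNNGAA, which reads the same on both strands. The stretches below are shown because they hold a searched core upstream of genes that differed in their calls between diets, namely Oas3 and Bst2, which rose, Gbp7 and Irf1, which rose in knockout, Ifit1 and Igtp, which fell in wild type, and Ifit3, Ifit3b and Isg15, which passed in neither genotype. Each reads 5′ to 3′ on the strand of its gene, with the response element core in capitals, or the gamma-activated core for Irf1.
Ifit1: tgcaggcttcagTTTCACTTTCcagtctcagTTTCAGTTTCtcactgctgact
Ifit3: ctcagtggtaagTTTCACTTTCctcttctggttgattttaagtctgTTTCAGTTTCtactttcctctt
Ifit3b: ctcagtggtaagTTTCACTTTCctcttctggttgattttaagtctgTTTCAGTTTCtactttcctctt
Isg15: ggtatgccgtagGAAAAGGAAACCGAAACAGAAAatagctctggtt
Oas3: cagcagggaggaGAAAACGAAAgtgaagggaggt
Bst2: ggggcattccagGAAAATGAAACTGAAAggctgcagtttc
Gbp7: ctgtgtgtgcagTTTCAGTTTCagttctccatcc
Igtp: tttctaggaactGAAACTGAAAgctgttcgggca
Irf1: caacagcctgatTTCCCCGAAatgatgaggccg

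These stretches lie upstream of their genes at chr19:34640773-34640825 (plus strand), chr19:34583361-34583428 (plus), chr19:34607757-34607824 (plus), chr4:156200863-156200908 (minus), chr5:120777713-120777746 (minus), chr8:71537575-71537614 (minus), chr3:142530271-142530304 (plus), chr11:58199510-58199543 (plus) and chr11:53769912-53769944 (plus). The stretches of Ifit3 and Ifit3b were identical over all 68 bases. The response element core was present in 17 of the 30 windows (56.7%), against 3.99% of the 27025 symbols with a window, and the gamma-activated core in 8 of 30 (26.7%), against 9.55%. Bst2, Gbp7, Igtp and Oas1a held both. A match describes letters in the window and is not a measured binding site.

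The estimated counts of a library summed to between 17502937 and 22902669 for the wild-type chow group and between 15888436 and 26821573 for the knockout chow group. The sums lay between 16149911 and 25823475 for wild type and between 20993930 and 29469645 for knockout under high-fat feeding. Chow wild type 3 and high-fat knockout 1 stood apart from their groups in earlier results of these data, and the counts of genes below are also given without both. The numbers in the sample titles run in separate series for chow and for high-fat diet, so diet and whatever those series mark cannot be told apart. Levels below are CPM, counts scaled to the TMM-corrected library total, and fold changes are log2 values ± SE from edgeR's quasi-likelihood test, with p adjusted over all 16830 genes. The corrected total lay below the summed counts in every chow library and above them in every high-fat library, so the scaling itself differed by diet. The row CT010467.1 held 2.54% to 14.6% of the counts of a library on chow and 0.637% to 12.3% on high-fat diet.

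Some members overlap neighbours or have close copies, so reads could be shared, and their values are uncertain to that extent. The reads themselves were not examined. Igtp overlaps Irgm2 on the same strand over 7975 bases, Gbp6 overlaps Gm43302 over 22995 and Rtp4 overlaps Gm45338 over 39792. Also on the same strand, Gbp7 overlaps Gm43802 over 638 bases and Irf9 overlaps Rnf31 over 124. In all, 15 members overlap another row of the table. Ifit3 and Ifit3b, Oas1a and Oas1g, and the guanylate-binding proteins are families of close copies, between which reads could be split. No label says whether counting used the strand, so the part of antisense genes is unknown. The deposited gene counts annotate Mx2 as a polymorphic pseudogene. Exon lengths used below came from GENCODE M21.

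Per kilobase of exon, the mean CPM over the 4 groups was highest for Bst2 at 69.7, followed by Ifi27 at 21.045, Igtp at 19.5, Ifit3 at 10.4 and Isg15 at 8.71. Oas3 at 0.255, Oas1g at 0.305 and Mx1 at 0.319 CPM per kilobase were the lowest. The map of levels by library shows the 38 genes in the 16 libraries.

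**Figure D1:**
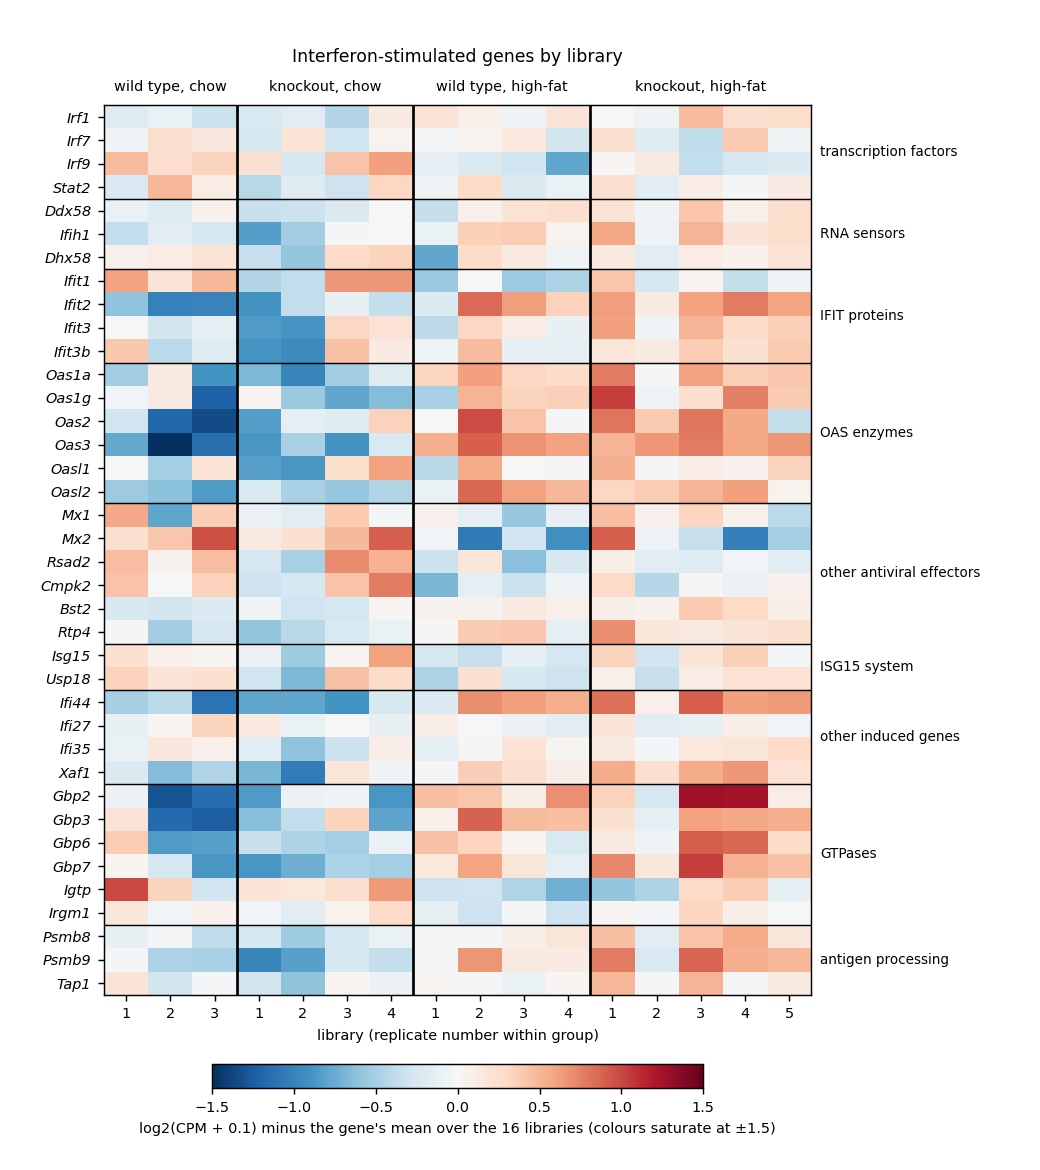
Heat map of the 38 genes (rows, grouped by role) in the 16 libraries (columns, grouped by genotype and diet). Colour is log2 of CPM plus a small constant, minus the mean of the gene over all libraries, with red above and blue below. Oas3, Ifit2, Oasl2 and Ifi44 are mostly blue on chow and red on high-fat diet, and Irf9 runs the other way.

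On high-fat diet, wild-type liver had higher levels of 9 of the 38 genes than on chow and lower levels of 4. Those that rose were the antiviral sensors Oas1a, Oas2, Oas3 and Oasl2, the antiviral genes Ifit2 and Bst2, Ifi44, and the guanylate-binding proteins Gbp2 and Gbp3. Those that fell were Irf9, Ifit1, Mx2 and Igtp. Over all genes 15.2% rose and 14.2% fell. Of the 38 genes 23 lay above 0 (48% of all genes did), with a median log2 fold change of 0.14 and a range of -1.10 to 1.90, against a median of -0.02 over all genes. That median was 0.25 without high-fat wild type 1, 0.23 without chow wild type 1, and 0.07 without chow wild type 2 or without high-fat wild type 2. All high-fat wild-type libraries lay above all chow wild-type libraries for 12 members, against 18.3% of all genes, and below for 6, against 17.7%. Without chow wild type 3 and high-fat knockout 1, 5 members rose and 2, Igtp and Irf9, fell. The count of 13 called members was also 7 without chow wild type 2 or without chow wild type 3.

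In knockout liver, 19 of the 38 genes were higher on high-fat diet than on chow and 1, Irf9, was lower. Over all genes 17.4% rose and 16.2% fell. Of the 38 genes 32 lay above 0 (49.3% of all genes did), with a median of 0.43 and a range of -0.57 to 1.30, against -0.01 over all genes. The libraries of the diets did not overlap for 11 members, all higher on high-fat diet, against 13.5% of all genes higher and 13% lower. At an unadjusted p under 0.05 stood 23 members here, against 43.7% of all genes, and 22 in wild type, against 40.1%. Without chow wild type 3 and high-fat knockout 1, 19 were higher and 1 lower, but the lower gene was then Mx2, and Irf9 did not pass. The genotypes shared no library in these diet comparisons. Ifit2, Oas1a, Oas3, Oasl2, Ifi44, Bst2 and Gbp2 rose in both, which is 7 of the 9 that rose in wild type and 7 of the 19 that rose in knockout. Irf9 fell in both, no member had opposite calls, and 29 of the 38 had the same sign. Diet called 29.4% of all genes in wild type and 33.6% in knockout, in either direction. How many of all genes shared calls or signs between genotypes was not counted. The overlap therefore cannot be read as particular to the 38 genes. The 12 members that passed in knockout and not in wild type did not pass the test of the difference between genotypes, which is given further on.

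**Figure D2:**
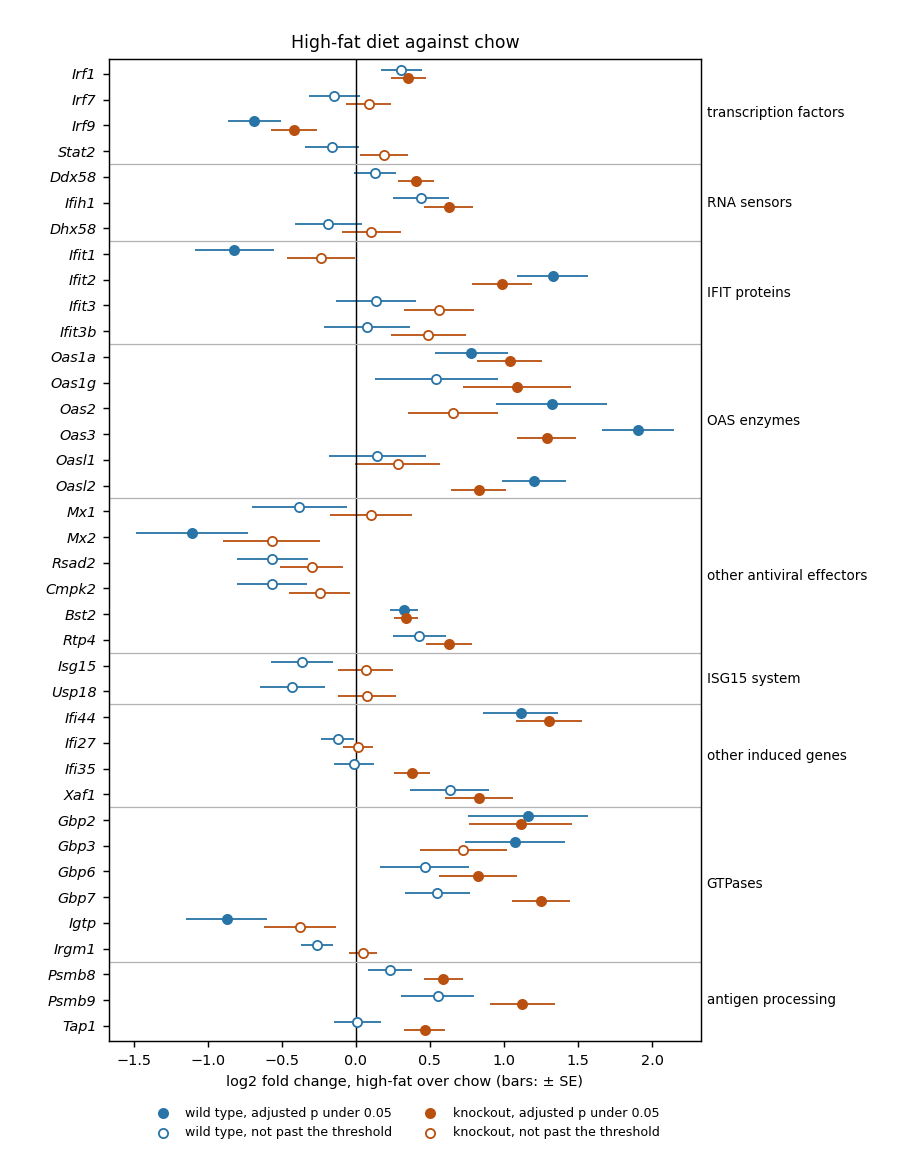
Log2 fold change of high-fat diet over chow for each of the 38 genes (horizontal axis, bars ± SE) in wild type (blue) and knockout (orange). Filled points passed an adjusted p of 0.05. The 6 OAS genes shown lie to the right of 0 in both genotypes, while Irf9 lies to the left.

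Among the 4 transcription factors, Irf9, the DNA-binding part of the complex that type I interferon activates, fell in both genotypes. It lies on chromosome 14 at 55603571 to 55610031 (mm10). Its levels on chow were 25.97, 22.3 and 23.6 CPM in wild type and 21.95, 15.8, 25.3 and 28.8 in knockout. On high-fat diet they were 17.2, 16.1, 15.2 and 10.9 CPM in wild type and 18.9, 20.6, 14.5, 15.6 and 16.2 in knockout. The wild-type diets did not overlap, whereas the lowest chow knockout library lay among the high-fat knockout ones. The log2 fold changes were -0.68 ± 0.18 (adjusted p = 0.0077) in wild type and -0.42 ± 0.16 (adjusted p = 0.047) in knockout. The knockout call was lost without chow wild type 1, 2 or 3, without chow knockout 1, 3 or 4, without high-fat wild type 2 or 3, without high-fat knockout 1, 3, 4 or 5, with no filter on low counts, in a fit of the 2 groups alone and with chow wild type 3 and high-fat knockout 1 both left out, where the log2 fold change was -0.44 to -0.29 (adjusted p = 0.053 to 0.19).

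Irf1, a factor that interferon gamma induces and that binds the same element, had 21.97, 23.5 and 20.1 CPM in wild type and 21.4, 22.3, 18.5 and 27.6 in knockout on chow. On high-fat diet Irf1 had 28.8, 26.5, 23.9 and 28.8 CPM in wild type and 25.1, 23.7, 34.8, 29.8 and 30.04 in knockout. The wild-type diets did not overlap, and the knockout diets did. The change was 0.31 ± 0.14 (adjusted p = 0.10) in wild type, which did not pass, and 0.35 ± 0.12 (adjusted p = 0.029) in knockout, which did. In a fit of the wild-type libraries alone Irf1 passed (adjusted p = 0.038), and the knockout call was lost without chow knockout 1, 2 or 3, without high-fat knockout 3, 4 or 5 and in a fit of the 2 groups alone, where the log2 fold change was 0.27 to 0.36 (adjusted p = 0.051 to 0.10).

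Irf7, the factor that amplifies type I interferon production, overlapped between all groups, with 12.3, 15.4 and 14.4 CPM in wild type and 10.7, 14.6, 10.4 and 13.2 in knockout on chow. On high-fat diet Irf7 had 12.6, 13.3, 14.3 and 10.5 CPM in wild type and 15.2, 11.3, 9.77, 16.8 and 12.3 in knockout. Stat2, the partner of Irf9, had 26.2, 43.6 and 33.3 CPM in wild type and 23.1, 26.8, 24.8 and 38.3 in knockout on chow. Neither gene separated the groups. Stat2 had 29.5, 37.98, 26.4 and 28.7 CPM in wild type and 36.8, 27.4, 33.4, 30.5 and 33.6 in knockout on high-fat diet. The diet changes of Irf7 were -0.14 in wild type and 0.09 in knockout, and those of Stat2 -0.16 and 0.19, with adjusted p of 0.57, 0.70, 0.54 and 0.38.

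The 3 RNA sensors detect viral RNA in the cytoplasm. Ifih1 (MDA5) had 18.6 ± 1.38 CPM (SD, n = 3) in wild type on chow and 25.3 ± 4.06 (n = 4) on high-fat diet, and in knockout 17.9 ± 4.73 (n = 4) and 27.6 ± 4.96 (n = 5). It rose in knockout by 0.63 ± 0.17 (adjusted p = 0.0078) and in wild type the change was 0.44 ± 0.19 (adjusted p = 0.090). Ddx58 (RIG-I) rose in knockout by 0.41 ± 0.12 (adjusted p = 0.017), with 0.13 in wild type (adjusted p = 0.53). The knockout call of Ddx58 was lost without chow knockout 1 or 2, where the log2 fold change was 0.37 (adjusted p = 0.053 to 0.057). Dhx58 (LGP2), a regulator of these sensors, passed in neither genotype, at -0.19 and 0.11 (adjusted p = 0.57 and 0.72).

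The IFIT proteins bind foreign RNA, and the 4 members measured here lie beside each other on chromosome 19, from 34550694 at the start of Ifit2 to 34650010 at the end of Ifit1 (mm10). Their diet changes were not alike. Ifit2 had 4.61, 3.44 and 3.49 CPM in wild type and 3.75, 5.43, 6.52 and 5.48 in knockout on chow. On high-fat diet Ifit2 had 6.08, 12.8, 10.9 and 8.98 CPM in wild type and 10.95, 7.69, 10.8, 12.2 and 10.6 in knockout. No high-fat library of a genotype overlapped its chow libraries, and the rises were 1.33 ± 0.24 (adjusted p = 4.7e-04) in wild type and 0.98 ± 0.20 (adjusted p = 0.0011) in knockout.

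Ifit1, whose upstream stretch holds 2 response element cores, had 23.9, 17.996 and 22.2 CPM in wild type on chow and 10.6, 15.7, 10.7 and 11.3 on high-fat diet. Every high-fat wild-type library was below every chow one. In knockout Ifit1 had 11.5, 12.1, 24.7 and 24.6 CPM on chow and 20.97, 13.2, 16.1, 12.2 and 14.9 on high-fat diet, and chow knockout 1 and 2 were below 3 and 4. Ifit1 fell in wild type, with a log2 fold change of -0.82 ± 0.26 (adjusted p = 0.029), and in knockout the change was -0.24 ± 0.23 (adjusted p = 0.47). The wild-type call was lost without chow wild type 1 or 3, without high-fat wild type 1, 3 or 4 and with chow wild type 3 and high-fat knockout 1 both left out, where the log2 fold change was -0.79 to -0.73 (adjusted p = 0.066 to 0.093).

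Ifit3 and Ifit3b, which share their upstream stretch, passed in neither genotype. Ifit3 changed by 0.14 ± 0.27 (adjusted p = 0.74) in wild type and 0.56 ± 0.24 (adjusted p = 0.081) in knockout, and Ifit3b by 0.08 ± 0.29 (adjusted p = 0.87) and 0.49 ± 0.26 (adjusted p = 0.15). Both showed the order seen for Ifit1 on chow, with 9.89, 9.65, 22.2 and 20.7 CPM of Ifit3 and 2.39, 2.28, 6.16 and 4.95 CPM of Ifit3b in chow knockout 1 to 4.

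**Figure D3:**
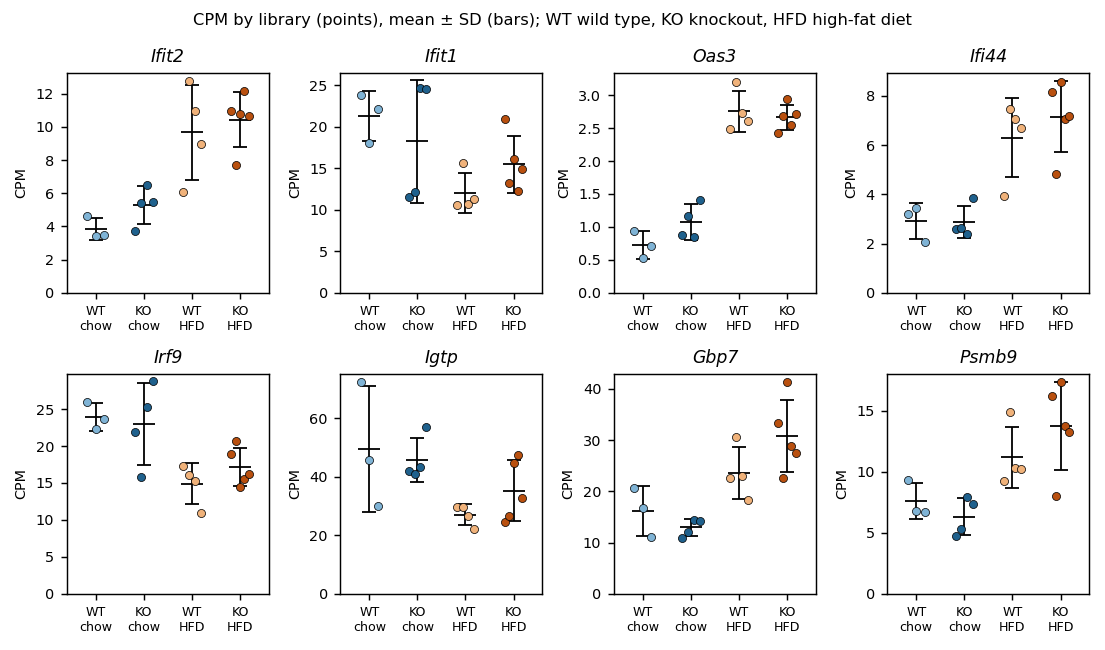
CPM of 8 members in each library (points) with the group mean ± SD (bars), for wild type (WT) and knockout (KO) on chow and on high-fat diet (HFD). Ifit2, Oas3 and Ifi44 are higher on high-fat diet in both genotypes, Ifit1 and Igtp are lower in wild type, and the chow knockout libraries of Ifit1 form a low and a high pair.

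The OAS enzymes make a messenger of linked adenylates when they bind double-stranded RNA, which activates the RNA-cutting enzyme RNase L, whereas Oasl1 is an OAS-like protein without this activity. All 6 OAS genes among the 38 lay above 0 in both genotypes, and 4 passed in each. Their medians were 0.99 in wild type and 0.93 in knockout. Of all genes, 48% lay above 0 and 15.2% rose in wild type, and 49.3% and 17.4% in knockout. Outside the 38, Oas1b lay below 0 in wild type (-0.29, adjusted p = 0.58) and Oas1c above (0.53, adjusted p = 0.38). Both rose in knockout, by 1.19 (adjusted p = 0.0093) and 1.035 (adjusted p = 0.044). Oas3, on chromosome 5 at 120753098 to 120777662 (mm10), had 0.941, 0.524 and 0.71005 CPM in wild type and 0.869, 1.16, 0.8498 and 1.41 in knockout on chow. On high-fat diet Oas3 had 2.48, 3.1998, 2.74 and 2.604 CPM in wild type and 2.43, 2.69, 2.94, 2.55 and 2.71 in knockout. Every high-fat library exceeded every chow library. The rises were 1.90 ± 0.24 (adjusted p = 2.0e-05) in wild type and 1.29 ± 0.20 (adjusted p = 8.8e-05) in knockout, the former the largest change among the 38 genes in either genotype. Counts of Oas3 were low, between 9 and 97 in a library.

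Oasl2, an OAS-like protein, had 2.45, 2.33 and 1.95 CPM in wild type and 3.097, 2.54, 2.41 and 2.61 in knockout on chow. On high-fat diet Oasl2 had 3.36, 6.64, 5.56 and 5.15 CPM in wild type and 4.49, 4.73, 5.16, 5.58 and 3.73 in knockout. The diets did not overlap within a genotype, with rises of 1.20 ± 0.22 (adjusted p = 5.0e-04) and 0.83 ± 0.19 (adjusted p = 0.0023). Oas1a had 2.49, 3.96 and 1.89 CPM in wild type and 2.23, 1.77, 2.48 and 3.18 in knockout on chow. On high-fat diet it had 4.55, 5.56, 4.51 and 4.41 CPM in wild type and 6.27, 3.57, 5.52, 4.67 and 4.79 in knockout. Here too the diets did not overlap within a genotype. Oas1a rose by 0.78 ± 0.25 (adjusted p = 0.024) in wild type and 1.04 ± 0.22 (adjusted p = 0.0014) in knockout, and the wild-type call was lost without chow wild type 1 or 3, without high-fat wild type 2 and with chow wild type 3 and high-fat knockout 1 both left out, where the log2 fold change was 0.57 to 0.70 (adjusted p = 0.068 to 0.12).

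Oas2 had 1.69, 0.874 and 0.769 CPM on chow and 2.102, 4.24, 2.86 and 2.07 on high-fat diet in wild type, without overlap. In knockout Oas2 had 1.14, 1.895, 1.84 and 2.69 CPM on chow and 3.74, 2.79, 3.73, 3.17 and 1.62 on high-fat diet, with overlap. Oas2 rose in wild type by 1.32 ± 0.37 (adjusted p = 0.013), a call lost without chow wild type 2 or 3 and with chow wild type 3 and high-fat knockout 1 both left out, where the log2 fold change was 1.12 to 1.18 (adjusted p = 0.061 to 0.064), and changed by 0.65 ± 0.30 (adjusted p = 0.11) in knockout. Oas1g, a close copy of Oas1a, had 0.659, 0.757 and 0.237 CPM in wild type and 0.706, 0.431, 0.354 and 0.397 in knockout on chow. On high-fat diet Oas1g had 0.459, 1.01, 0.884 and 0.903 CPM in wild type and 1.498, 0.646, 0.8196, 1.22 and 0.925 in knockout. The diets overlapped in both genotypes for this gene of low counts. Its rise of 1.09 ± 0.36 (adjusted p = 0.027) in knockout passed, and 0.54 ± 0.42 (adjusted p = 0.35) in wild type did not. The knockout call of Oas1g was lost without chow knockout 2, 3 or 4 and without high-fat knockout 1 or 4, where the log2 fold change was 0.94 to 1.04 (adjusted p = 0.056 to 0.074). Oasl1 passed in neither, at 0.14 and 0.28 (adjusted p = 0.78 and 0.48).

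Of the 6 other antiviral effectors, Bst2 (tetherin), which holds budding virus at the cell surface, rose in both genotypes. Bst2 had 53.9 ± 1.34 CPM (SD, n = 3) in wild type and 57.6 ± 6.39 (n = 4) in knockout on chow, and 67.6 ± 1.52 (n = 4) and 72.8 ± 7.71 (n = 5) on high-fat diet. The diets did not overlap within a genotype, although the rises were small, at 0.33 ± 0.094 (adjusted p = 0.014) and 0.34 ± 0.082 (adjusted p = 0.0041). The wild-type call of Bst2 was lost without chow wild type 2, where the log2 fold change was 0.31 (adjusted p = 0.052). Rtp4, an interferon-induced protein that binds RNA, had 10.3, 7.11 and 8.58 CPM in wild type and 6.79, 7.67, 8.71 and 9.54 in knockout on chow. On high-fat diet Rtp4 had 10.4, 13.5, 13.6 and 9.35 CPM in wild type and 16.7, 11.6, 11.3, 11.7 and 12.1 in knockout. The knockout diets did not overlap, and the wild-type diets did. Rtp4 rose in knockout by 0.63 ± 0.16 (adjusted p = 0.0048), against 0.43 ± 0.18 (adjusted p = 0.079) in wild type.

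Mx2, of the family of dynamin-like antiviral GTPases, had 3.905, 4.43 and 6.51 CPM on chow and 3.21, 1.53, 2.69 and 1.7003 on high-fat diet in wild type. All high-fat values were below all chow values. In knockout Mx2 had 3.64, 3.88, 4.67 and 6.23 CPM on chow and 6.22, 3.13, 2.58, 1.57 and 2.28 on high-fat diet, with high-fat knockout 1 among the chow values. Mx2 fell in wild type, with a log2 fold change of -1.10 ± 0.38 (adjusted p = 0.036), and in knockout the change was -0.57 ± 0.33 (adjusted p = 0.19). The wild-type call was lost without chow wild type 2 or 3, without high-fat wild type 2 or 4 and with chow wild type 3 and high-fat knockout 1 both left out, where the log2 fold change was -1.17 to -0.84 (adjusted p = 0.059 to 0.16). Mx1, Rsad2 (viperin) and Cmpk2, which lies next to Rsad2 on chromosome 12, passed in neither genotype. Their changes in wild type were -0.38, -0.56 and -0.56, and in knockout 0.10, -0.30 and -0.24 (adjusted p = 0.40, 0.090, 0.081, 0.81, 0.30 and 0.38).

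Isg15, a ubiquitin-like protein that is attached to other proteins, had 7.57, 6.81 and 6.63 CPM in wild type and 6.09, 4.44, 6.66 and 9.89 in knockout on chow. On high-fat diet Isg15 had 5.47, 5.08, 5.85 and 5.42 CPM in wild type and 8.14, 5.27, 7.41, 8.302 and 6.38 in knockout. The wild-type high-fat values all lay below the wild-type chow values, but the change of -0.36 ± 0.21 (adjusted p = 0.21) did not pass, nor did that of 0.07 ± 0.18 (adjusted p = 0.81) in knockout. Usp18, which removes Isg15 and dampens the type I receptor, passed in neither genotype, at -0.43 and 0.08 (adjusted p = 0.16 and 0.79).

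Ifi44, an interferon-induced protein encoded on chromosome 3 at 151730922 to 151749961 (mm10), rose in both genotypes. It had 3.199, 3.44 and 2.07 CPM in wild type and 2.61, 2.63, 2.41 and 3.84 in knockout on chow. On high-fat diet Ifi44 had 3.94, 7.48, 7.07 and 6.695 CPM in wild type and 8.14, 4.83, 8.56, 7.05 and 7.17 in knockout. The diets did not overlap within a genotype, and the rises were 1.11 ± 0.26 (adjusted p = 0.0033) and 1.30 ± 0.22 (adjusted p = 2.3e-04). Xaf1, a factor that promotes cell death, had 1.69, 1.22 and 1.42 CPM in wild type and 1.195, 0.905, 2.27 and 1.899 in knockout on chow. On high-fat diet Xaf1 had 1.95, 2.57, 2.36 and 2.13 CPM in wild type and 2.95, 2.38, 2.94, 3.17 and 2.31 in knockout, again without overlap within a genotype. Xaf1 rose in knockout by 0.83 ± 0.23 (adjusted p = 0.0094), against 0.63 ± 0.27 (adjusted p = 0.084) in wild type.

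Ifi35 had 12.9, 15.6 and 14.6 CPM in wild type and 12.4, 9.13, 11.1 and 14.9 in knockout on chow. On high-fat diet Ifi35 had 12.6, 14.1, 16.04 and 14.3 CPM in wild type and 15.3, 13.7, 15.5, 15.7 and 16.99 in knockout. The diets overlapped in both genotypes. Ifi35 rose in knockout by 0.38 ± 0.12 (adjusted p = 0.023), against -0.01 in wild type (adjusted p = 0.96), and the knockout call was lost without chow knockout 2 or 3 and without high-fat knockout 5, where the log2 fold change was 0.27 to 0.35 (adjusted p = 0.056 to 0.093). Ifi27 passed in neither genotype, with 28.2 to 38.5 CPM in wild type and 28.3 to 33.96 in knockout on chow, and 27.5 to 32.7 and 27.2 to 35.01 on high-fat diet (adjusted p = 0.44 and 0.93).

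The interferon-inducible GTPases attack the vacuoles of pathogens inside cells and respond to interferon gamma. Of the 4 guanylate-binding proteins among the 38 genes, Gbp2, Gbp3 and Gbp7 lie beside each other on chromosome 3 and Gbp6 lies on chromosome 5. Gbp7 had 20.6, 16.8 and 11.01 CPM in wild type and 10.98, 12.1, 14.4 and 14.2 in knockout on chow. On high-fat diet Gbp7 had 22.6, 30.5, 22.99 and 18.4 CPM in wild type and 33.4, 22.7, 41.4, 28.95 and 27.5 in knockout. In knockout the diets did not overlap and Gbp7 rose by 1.25 ± 0.20 (adjusted p = 1.6e-04). In wild type they overlapped and the change of 0.55 ± 0.22 (adjusted p = 0.071) did not pass.

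Gbp2 had 7.01, 2.97 and 3.31 CPM in wild type and 4.08, 6.98, 7.15 and 4.02 in knockout on chow. On high-fat diet Gbp2 had 10.2, 9.98, 8.001 and 12.01 CPM in wild type and 9.501, 6.23, 18.1, 17.8 and 8.06 in knockout. High-fat knockout 3 and 4 were about as high as each other and above the other 3 libraries of their group. Gbp2 rose by 1.16 ± 0.41 (adjusted p = 0.043) and 1.11 ± 0.35 (adjusted p = 0.022). The wild-type call was lost without chow wild type 2 or 3, without high-fat wild type 1, 2 or 4, with no filter on low counts and with chow wild type 3 and high-fat knockout 1 both left out, where the log2 fold change was 0.94 to 1.18 (adjusted p = 0.067 to 0.16). The knockout call of Gbp2 was lost without chow knockout 1 or 4 and without high-fat knockout 3 or 4, where the log2 fold change was 0.91 to 0.99 (adjusted p = 0.051 to 0.070).

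Gbp3 had 5.41, 2.04 and 1.95 CPM on chow and 4.97, 8.799, 6.57 and 6.48 on high-fat diet in wild type, with chow wild type 1 among the high-fat values. In knockout Gbp3 had 2.99, 3.62, 5.95 and 2.69 CPM on chow and 5.52, 4.29, 7.19, 7.05 and 6.94 on high-fat diet, with overlap as well. Gbp3 rose in wild type by 1.07 ± 0.34 (adjusted p = 0.024), a call lost without chow wild type 2 or 3, without high-fat wild type 2 and with chow wild type 3 and high-fat knockout 1 both left out, where the log2 fold change was 0.83 to 0.91 (adjusted p = 0.073 to 0.11), and in knockout the change was 0.73 ± 0.29 (adjusted p = 0.065). Gbp6 had 16.2, 6.81 and 6.98 CPM in wild type and 9.78, 8.96, 8.64 and 11.6 in knockout on chow. On high-fat diet Gbp6 had 16.8, 15.4, 12.7 and 10.6 CPM in wild type and 13.6, 11.9, 23.2, 22.6 and 15.04 in knockout. Its knockout diets did not overlap, and chow wild type 1 stood above the other 2 chow wild-type libraries. Gbp6 rose in knockout by 0.82 ± 0.26 (adjusted p = 0.025), a call lost without chow knockout 1, 2 or 3 and without high-fat knockout 3 or 4, where the log2 fold change was 0.69 to 0.82 (adjusted p = 0.057 to 0.065), against 0.46 ± 0.30 (adjusted p = 0.27) in wild type.

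Igtp and Irgm1 belong to the immunity-related GTPases. Igtp had 72.6, 45.9 and 30 CPM on chow and 29.5, 29.7, 26.7 and 22.2 on high-fat diet in wild type, and in knockout 42.1, 40.9, 43.2 and 57.1 CPM on chow and 24.4, 26.5, 44.7, 47.5 and 32.9 on high-fat diet. The wild-type diets did not overlap, but chow wild type 1 and 3 stood far apart. Igtp fell in wild type, with a log2 fold change of -0.87 ± 0.28 (adjusted p = 0.028), and its knockout change was -0.38 ± 0.24 (adjusted p = 0.25). The wild-type call was lost without chow wild type 1 or 2, without high-fat wild type 3 or 4 and with no filter on low counts, where the log2 fold change was -0.93 to -0.49 (adjusted p = 0.054 to 0.18). The lowest of these sizes came without chow wild type 1. Irgm1 passed in neither genotype, at -0.26 ± 0.11 (adjusted p = 0.079) and 0.05 ± 0.10 (adjusted p = 0.72).

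The immunoproteasome subunits Psmb8 and Psmb9 cut proteins into peptides that Tap1 carries to class I molecules, and the 3 genes lie side by side on chromosome 17. All 3 rose in knockout and none passed in wild type. The share of all genes that rose was 17.4% in knockout and 15.2% in wild type. Psmb9 had 9.31, 6.81 and 6.69 CPM in wild type and 4.73, 5.298, 7.93 and 7.33 in knockout on chow. On high-fat diet Psmb9 had 9.21, 14.9, 10.3 and 10.3 CPM in wild type and 16.2, 8.03, 17.4, 13.7 and 13.3 in knockout. The knockout diets did not overlap, although high-fat knockout 2 was close to the chow values. Psmb9 rose in knockout by 1.12 ± 0.22 (adjusted p = 8.0e-04), against 0.55 ± 0.25 (adjusted p = 0.10) in wild type.

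Psmb8 had 15.99, 17.01 and 13.3 CPM in wild type and 14.4, 11.98, 14.6 and 16.2 in knockout on chow. On high-fat diet Psmb8 had 17.2, 17.2, 18.4 and 19.7 CPM in wild type and 23.8, 15.4, 23.3, 25.5 and 19.5 in knockout. High-fat knockout 2 was the only library of its group within the chow knockout range. Psmb8 rose in knockout by 0.59 ± 0.13 (adjusted p = 0.0022), against 0.23 ± 0.15 (adjusted p = 0.27) in wild type. Tap1 had 24.3, 17.4 and 20.7 CPM in wild type and 17.4, 13.9, 21.6 and 19.9 in knockout on chow. On high-fat diet Tap1 had 21.6, 20.9, 19.7 and 21.6 CPM in wild type and 29.95, 20.96, 30.1, 20.9 and 23.2 in knockout, overlapping with chow in both genotypes. Tap1 rose in knockout by 0.46 ± 0.14 (adjusted p = 0.016), against 0.01 in wild type (adjusted p = 0.97), and the knockout call was lost without chow knockout 2, where the log2 fold change was 0.35 (adjusted p = 0.067).

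Members with and without the response element core both moved with diet. Among the 17 with a match in the window, 5 rose and 2 fell in wild type and 8 rose in knockout, with medians of 0.14 and 0.49. Among the 13 with a window and no match, 3 rose and 1 fell in wild type and 9 rose and 1 fell in knockout, with medians of 0.23 and 0.46. Over all genes 15.2% rose and 14.2% fell in wild type, and 17.4% and 16.2% in knockout. Among the genes without a match, Ifit2, Oasl2 and Ifi44 rose in wild type and Irf9 fell. The printed stretches were picked because they hold a core, so they cannot show whether the core goes with the calls.

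The knockout was compared with wild type on high-fat diet to ask which genes differ in liver labelled as knockout. None of the 38 genes passed, by edgeR or by the DESeq2 Wald test, and over all genes 0.00594% passed by edgeR. At an unadjusted p under 0.05, 1 member (Irgm1) was found, against 3.81% of all genes. Nonetheless 35 of the 38 lay above 0, against 51.1% of all genes, with a median of 0.19 and a range of -0.13 to 0.44, against 0.00 over all genes. Leaving out high-fat wild type 1 took the median of the 38 to 0.12. Members tended to be high or low together within a library, so the 38 signs are not independent.

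Irgm1, which governs other immunity-related GTPases and lies on chromosome 11 at 48861968 to 48871684 (mm10), had 42.6, 37.9, 46.2 and 37.7 CPM in wild type and 48.5, 46.4, 58.6, 50.4 and 46.8 in knockout on high-fat diet. All knockout values lay above all wild-type values, the 1 member for which this held, against 0.594% of all genes, and no member lay wholly lower, against 0.642%. The difference was 0.29 ± 0.10 (SE; 95% interval 0.08 to 0.49), with an edgeR adjusted p of 1.00. On chow Irgm1 had 53.02, 45.7 and 49.1 CPM in wild type and 45.6, 42.2, 48.9 and 57.1 in knockout, which overlapped.

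The next smallest p on high-fat diet belonged to Isg15, Gbp7, Psmb8 and Tap1, whose libraries are given above and overlapped between genotypes. Isg15 differed by 0.38 ± 0.18 (SE; 95% interval -0.02 to 0.78) and Gbp7 by 0.38 ± 0.19 (SE; 95% interval -0.03 to 0.79). Psmb8 differed by 0.25 ± 0.13 (SE; 95% interval -0.03 to 0.53) and Tap1 by 0.26 ± 0.14 (SE; 95% interval -0.04 to 0.56). Each of these intervals includes 0, and the adjusted p was 1.00 for all 4 genes.

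**Figure D4:**
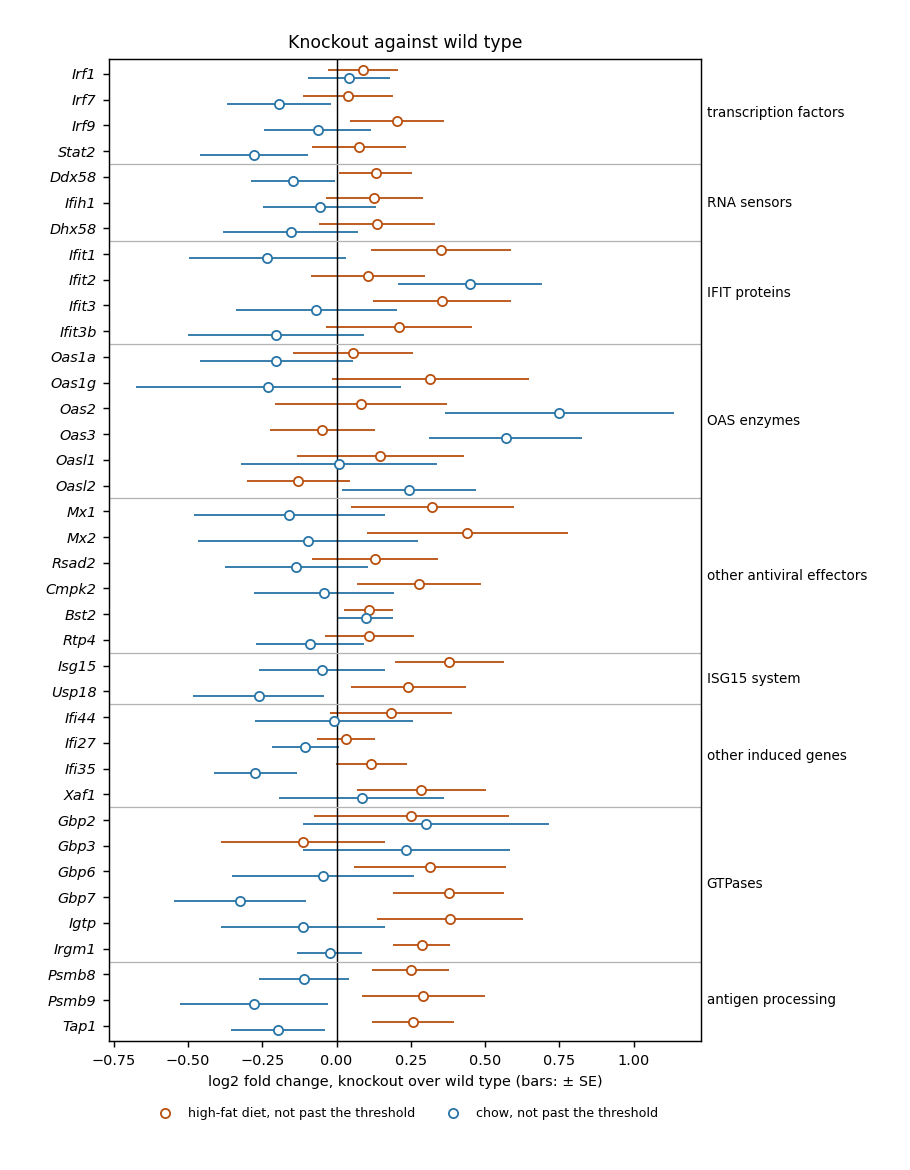
Log2 fold change of knockout over wild type for each of the 38 genes (horizontal axis, bars ± SE) on high-fat diet (orange) and on chow (blue). Open points did not pass an adjusted p of 0.05, and all points are open. Most orange points lie right of 0 and most blue points left of it.

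On chow, too, none of the 38 genes passed between genotypes by edgeR or DESeq2, and over all genes 0.00594% passed by edgeR. At an unadjusted p under 0.05, 1 member (Oas3) was found, against 5.95% of all genes. Here 28 of the 38 lay below 0 and 10 above, against 50.1% of all genes above, with a median of -0.09 and a range of -0.32 to 0.75. That median rested on single libraries, at 0.01 without chow wild type 1, no further from 0 than -0.02 without chow knockout 1 or chow knockout 2, and -0.21 without chow knockout 4. Oas3 differed by 0.57 ± 0.26 (SE; 95% interval 0.01 to 1.13), with an edgeR adjusted p of 0.83. Oas2 differed by 0.75 ± 0.39 (SE; 95% interval -0.09 to 1.59) and Ifit2 by 0.45 ± 0.24 (SE; 95% interval -0.08 to 0.98). Ifi35 and Stat2 lay on the other side of 0, at -0.27 ± 0.14 (SE; 95% interval -0.58 to 0.03) and -0.28 ± 0.18 (SE; 95% interval -0.67 to 0.12). The libraries of all 38 genes overlapped between genotypes, where 3.07% of all genes lay wholly higher and 2.55% wholly lower, and the smallest adjusted p among all 38 members was 0.83.

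The knockout effect on high-fat diet minus that on chow passed for none of the 38 genes, nor for any of the 16830 (0% called), with 4 members at an unadjusted p under 0.05 against 6.6% of all genes. DESeq2 called 0 members as well. The 4 were Gbp7 at 0.70 ± 0.29 (SE; 95% interval 0.07 to 1.33), Tap1 at 0.45 ± 0.21 (SE; 95% interval -0.01 to 0.91), Irgm1 at 0.31 ± 0.14 (SE; 95% interval -0.004 to 0.63) and Ifi35 at 0.39 ± 0.18 (SE; 95% interval -0.01 to 0.79). Oas3 followed with the opposite sign, at -0.62 ± 0.31 (SE; 95% interval -1.30 to 0.06). The intervals use the 12 residual degrees of freedom, and the test adds degrees of freedom borrowed across genes, so an interval can include 0 where the unadjusted p is under 0.05. The smallest adjusted p was 0.71, for Gbp7. The difference lay above 0 for 32 of the 38 genes, against 50.7% of all genes, with a median of 0.28. That median ran from 0.20 to 0.43 over all libraries left out in turn, with 0.43 when chow knockout 4 was left out. This contrast uses the same 16 libraries as the comparisons above and adds no independent samples.

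Within groups, the 38 genes tended to be high or low together in a library. The mean log2 CPM of the 38 genes was 3.29, 3.0 and 3.0 in wild type on chow and 2.85, 2.83, 3.22 and 3.33 in knockout on chow. On high-fat diet it was 3.17, 3.52, 3.33 and 3.25 in wild type and 3.65, 3.23, 3.63, 3.56 and 3.43 in knockout. The group means were 3.10 ± 0.165 (SD, n = 3), 3.06 ± 0.254 (n = 4), 3.32 ± 0.150 (n = 4) and 3.50 ± 0.173 (n = 5) in that order. Chow wild type 1 was the highest of its group for 23 of the 38 genes, chow knockout 4 for 21 and high-fat wild type 2 for 20, while high-fat knockout 2 was the lowest of its group for 25. The median coefficient of variation of the 38 genes was 16.4% and 24.4% in wild type and knockout on chow, and 18.6% and 17.7% under high-fat feeding.

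**Figure D5:**
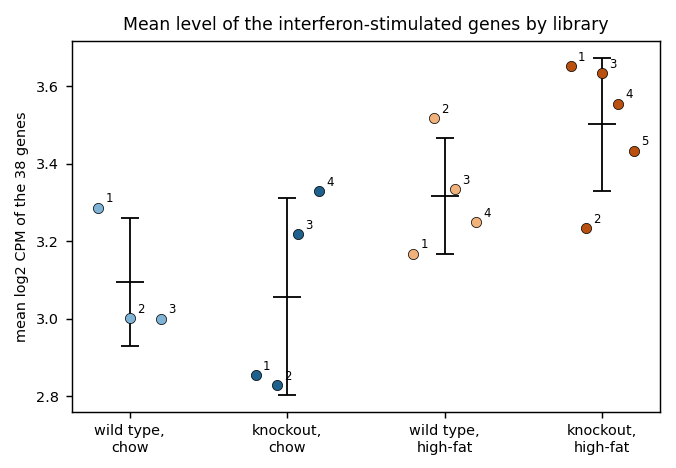
Mean log2 CPM of the 38 genes in each library (points, numbered by replicate) with the group mean ± SD (bars). Chow knockout splits into 2 libraries near 2.85 and 2.83 and 2 at 3.22 and 3.33, and the high-fat knockout libraries other than the second lie at 3.43 or above.

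Other genes of the pathway were read from lists chosen with earlier results of these data known. Of the interferon ligands, Ifnk was the 1 row found, at no more than 0.215 CPM in any library, and it did not pass the filter. The other 19 listed ligands were not found by name, so they were not analysed here. Of the 6 receptor genes, Il10rb and Ifngr1 rose in both genotypes and Ifnar2 fell in both. Il10rb, the shared chain of the receptors of interferon lambda and interleukin 10, changed by 1.14 ± 0.15 (adjusted p = 2.6e-05) in wild type and 1.02 ± 0.13 (adjusted p = 1.4e-05) in knockout. Ifngr1 changed by 0.91 ± 0.12 (adjusted p = 2.9e-05) and 0.50 ± 0.10 (adjusted p = 0.0012). Ifnar2 fell, with log2 values of -0.70 ± 0.089 (adjusted p = 2.0e-05) and -0.73 ± 0.078 (adjusted p = 2.7e-06). In wild type Ifnar1 also fell (-0.31, adjusted p = 0.017) and Ifngr2 rose (0.24, adjusted p = 0.042).

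Of the 13 signal transducers and brakes, 4 rose and 1 fell in wild type and 3 rose in knockout. Each count of this kind, here and for the lists and cell markers below, stands against the share over all genes. That share was 15.2% higher and 14.2% lower in wild type, and 17.4% and 16.2% in knockout. Several of these small lists come near it. Irf8, a factor of macrophages and dendritic cells, changed by 1.10 ± 0.21 (adjusted p = 6.7e-04) and 0.73 ± 0.18 (adjusted p = 0.0040), and Irf5 by 0.88 and 0.73. Of 19 genes of nucleic acid sensing, 9 rose and 1 fell in wild type and 7 rose in knockout. The endosomal sensors Tlr7 and Tlr9 changed by 2.05 and 2.28 in wild type and 1.52 and 1.64 in knockout. These sizes rest on low levels on chow. Tlr7 had 0.414 to 1.22 CPM in wild type and 0.652 to 1.32 in knockout on chow. Tlr9 had 0.188 to 0.466 CPM in wild type and 0.142 to 0.652 in knockout on chow. Adar, the RNA-editing enzyme, fell in wild type (-0.53, adjusted p = 0.039).

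Of 36 other type I interferon-stimulated genes tested, 15 rose and 2 fell in wild type and 20 rose and 2 fell in knockout, with medians of 0.45 and 0.50. Ifi27l2a changed by 1.95 ± 0.32 (adjusted p = 2.3e-04) and 1.77 ± 0.28 (adjusted p = 1.1e-04), and Slfn2 by 1.58 ± 0.18 (adjusted p = 5.4e-06) and 1.29 ± 0.15 (adjusted p = 7.3e-06). Helz2, a helicase, fell, with log2 values of -0.79 ± 0.14 (adjusted p = 3.7e-04) and -0.75 ± 0.12 (adjusted p = 1.7e-04). Of 25 genes induced by interferon gamma, 7 rose and 2 fell in wild type and 9 rose and 1 fell in knockout. The chemokines Cxcl9 and Cxcl10 changed by 1.74 and 2.01 in wild type and 1.53 and 1.90 in knockout. In the genotype comparisons and their difference, no gene of these lists passed.

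Markers of other liver cells moved with diet beside the interferon-stimulated genes. Of 14 Kupffer cell and macrophage markers, 11 rose in wild type and 7 in knockout. Their summed level was 171 to 336 CPM in wild type and 312 to 364 in knockout on chow, and 429 to 787 and 417 to 769 on high-fat diet, with no defining marker at 0 in any library. Of 10 hepatocyte markers, 6 fell in wild type and 5 in knockout, and their summed level was 96040 to 103710 and 94039 to 108520 CPM on chow and 68549 to 84463 and 69901 to 87528 on high-fat diet. Hepatic stellate markers rose in 7 of 8 in wild type and 6 of 8 in knockout. Of the 4 plasmacytoid dendritic cell markers tested, from a list of 8, Ly6d and Tcf4 rose in both genotypes, Ccr9 fell in knockout, and Siglech, which defines the cell type, passed in neither, while Klk1 and Pacsin1 were at 0 in some libraries.

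Of the 5 erythroid markers tested, the 4 globin genes rose in wild type and none passed in knockout, with a summed level of 516 to 620 CPM in wild type and 498 to 617.6 in knockout on chow and 917 to 2159 and 514 to 1959 on high-fat diet. Of the 4 neutrophil markers tested, 3 rose in wild type and 1 in knockout, and the summed level on chow was 0.659 to 0.947 and 0.991 to 3.003 CPM, against 3.20 to 8.64 and 2.53 to 4.92 on high-fat diet. Of the 5 cholangiocyte markers tested, Krt19 and Spp1 rose in both genotypes. Of 8 conventional dendritic cell markers, 3 rose and 1 fell in wild type and 2 rose in knockout, and of 10 sinusoidal endothelial markers 5 rose in wild type and 3 fell in knockout. Of the 12 T and NK cell markers tested, 1 rose in wild type and none passed in knockout, and of the 7 B and plasma cell markers tested none passed in either. Among the markers at 0 in some libraries were Cd209a, Ncr1, Gzma, Gzmb, Eomes, Retnlg, Mmp8, Camp, Ngp and Cftr. The part of these cells in the diet changes above was not tested. In whole liver, fewer cells of a type and less RNA per cell cannot be told apart.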

How the data were processed

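Total RNA of snap-frozen liver was depleted of ribosomal RNA for 16 libraries, and trimmed reads went through TopHat2 and then Cuffdiff, per the labels' protocols. Per the submitters' processing notes, the genome build was mm10. Neither tool versions nor a strand setting could be read from the labels (not given in the sources used here). Estimated counts per gene and library were deposited, neither scaled to depth nor to length, and in this table the smallest row total was 10. The labels do not say by which step the authors arrived at these values. No per-sample column lacked a label (0 left out).

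Here the estimated counts were rounded to whole numbers. In R 4.3.3 with edgeR 4.0.16, filterByExpr on the 4 groups (minimum count 10) kept 16830 genes, libraries were scaled by TMM, and 1 robust quasi-likelihood model with a mean per group was fitted to all 16 libraries (12 residual degrees of freedom). Each of 5 comparisons was tested two-sided, its p-values were adjusted after Benjamini and Hochberg across every gene tested, and the threshold was 0.05. An SE was obtained as the size of the log2 fold change over the root of F. A prior count of 2 entered log2 CPM. The intervals printed are 95% intervals from the SE and 12 residual degrees of freedom. Alternatives were the DESeq2 1.42.0 Wald test and size factors, other filters, fits of 2 groups and leaving out libraries.

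The members and the gene lists were chosen with earlier results of these data known. Values in every library are given for up to 12 called members with the largest change in each diet comparison, for Irf1, Irf7, Irf9 and Stat2, and for the 5 smallest p in each other comparison. Other pathway genes are named only where they passed in a comparison, apart from Ifnk, the only ligand row found. No 2 libraries of a group were near-identical. Promoter windows came from RefSeq on GRCm38.p6.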

Additional observations from a re-analysis of the deposited data

Results flagged for a closer look

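In 7 of the 114 pairs of a member and a group of 4 or 5 libraries, 1 library lay far from the others by Dixon's criterion, which chance meets in about 1 in 20 pairs. Chow knockout 4 was the highest of its group for the antiviral gene Ifi44, at 3.84 CPM against 2.63 in the next library, and for the GTPase Igtp, at 57.1 CPM against 43.2. High-fat wild type 2 was the highest of its group for Ifit1 at 15.7 CPM (next 11.3), for Ifit3b at 6.30 CPM (next 4.32) and for Oas1a at 5.56 CPM (next 4.55). High-fat knockout 2 was the lowest of its group for the Isg15 protease Usp18, at 8.20 CPM, next to 10.998 in the following library. High-fat knockout 1 was the highest for Rtp4, at 16.7 CPM (next 12.1).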

How the results depend on the processing

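No paired analysis was possible because replicate numbers follow accession order and pair no libraries. The wild-type diet count of 13 called members was 7 without chow wild type 2, 7 without chow wild type 3 and 7 without both libraries that stood apart. Over all libraries left out in turn it ran from 7 to 14, and the knockout diet count of 20 ran from 14 to 21. The genotype counts and that of their difference were 0 in every alternative run. Stat2 in the wild-type diet comparison turned to 0.046 without chow wild type 2 (range -0.33 to 0.05), and Irf7 in knockout to -0.023 without high-fat knockout 4 (range -0.02 to 0.18), and neither passed in any alternative. Of 33 gene results that passed, 17 kept their call in all alternatives run. Depth limits Oas1g, Oas3, Mx1 and other members near 1 CPM. The causes were not tested.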
